A study of Mus musculus with 12 samples.

Results

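The 37 genes described here are antiviral interferon-stimulated genes, the effectors, sensors and regulators that cells switch on when type I interferon reaches its receptor. They were chosen by symbol, with earlier results of these data known, out of 32285 genes in the deposited matrices. Of all these genes 31890 lay outside immunoglobulin symbols. Each of the 37 was followed in antibody-secreting cells (ASCs), a name that covers plasmablasts and plasma cells. All 37 symbols were found in the matrices.

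Type I interferons bind a receptor of the IFNAR1 and IFNAR2 chains, whose kinases activate transcription factors, among them STAT2. With IRF9, STAT2 takes part in a complex that binds the interferon-stimulated response element (ISRE) in promoters and raises transcription. Some target genes encode antiviral enzymes and sensors, others feed back on the pathway: IRF7 amplifies it and USP18 dampens it. The thymic medulla is known for a steady production of type I interferon in the absence of infection.

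The cells came from female and male Prdm1-eYFP reporter mice on the C57BL/6 background, 3 months old, with no treatment given in the labels. All groups carry the reporter, a yellow fluorescent protein marking transcription of Prdm1, a regulator of ASC identity. ASCs of bone marrow, spleen and thymus were sorted as CD138 high, IgD negative, CD90.2 negative and reporter positive, with B220 either way, from pools of 3 mice per sort. Each combination of sex and tissue gave 1 5' droplet library, so a tissue has 2 libraries, a sex has 3, and no combination was replicated; sex and pool of mice cannot be told apart. The labels do not state if 1 pool of mice gave all 3 tissues; sex, with which such a pool would coincide, is a term of the model.

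Barcodes were kept with at least 500 unique molecular identifiers (UMIs) outside immunoglobulin genes and with at least 50% of light-chain V UMIs in 1 V gene, as a cell with a single light chain should show. This kept 9213 of 39949 barcodes. Bone marrow had 1325 female and 1769 male ones, spleen 3661 and 1970, and thymus 133 and 355. Their UMIs outside immunoglobulin genes summed to between 282801 in female thymus and 21365508 in female spleen, so thymic values carry the widest counting error. Levels are given as CPM, UMI counts scaled to the library's total outside immunoglobulin genes, with the female library before the male one. The 8 ASC markers (Prdm1, Xbp1, Sdc1, Irf4, Jchain, Mzb1, Tnfrsf17 and Slamf7) were all detected in every library, with sums of 56170 and 79794 CPM in female and male thymus and 72226 to 109529 in the other 4. Of 9 T cell markers 6 and 8 were detected in female and male thymus, at sums of 77.8 and 29.9 CPM against 8.48 to 13.0 elsewhere; Cd4 was at 0 in both and Cd3g and Cd8b1 in the female library. Of 7 B cell markers 3 and 4 were detected in thymus, at sums of 184 and 229 CPM against 149 to 172 elsewhere, with Pax5, Cr2 and Fcer2a at 0 in both and Cd22 in the female library. The part of these cells in the thymic levels below was not tested.

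Libraries shared cell barcodes. Of the kept barcodes, 33 of 133 in female thymus (24.8%) and 64 of 355 in male thymus (18.03%) also stood in the filtered list of another library, against 3.71% to 8.08% in the other 4. The share with the same leading light-chain V gene in both varied between pairs. It was 30 of 30 that male thymus shared with female bone marrow, and 31 of 39 with male bone marrow. With female and male spleen it was 9 of 20 and 9 of 15, and of 55 that female spleen shared with male spleen it was 7. The ASC marker sum of thymus was 31869 and 51392 CPM once barcodes found in another library were left out. Sums, counts called and the differences of many members are also given without them, while levels by gene, shares of barcodes and values by class include them unless stated.

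The 37 genes together took 1349 and 1128 CPM in bone marrow, 2367 and 1393 CPM in spleen and, in thymus, 4459 and 4900 CPM. Both thymus libraries were above the other 4, and female spleen stood above male spleen and bone marrow. Without the barcodes found in another library the sums were 3313 and 3763 in thymus, and 1090.4 to 2367 in the other 4. Ifi27l2a alone supplied 40.3% and 43.4% of these UMIs in thymus and 6.90% to 27.9% elsewhere; leaving it out, the sums were 2663 and 2772 in thymus and 1049.9 to 1706 elsewhere, again without overlap. The plot of summed levels shows these sums beside 2 other kinds of barcode.

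**Figure D1:**
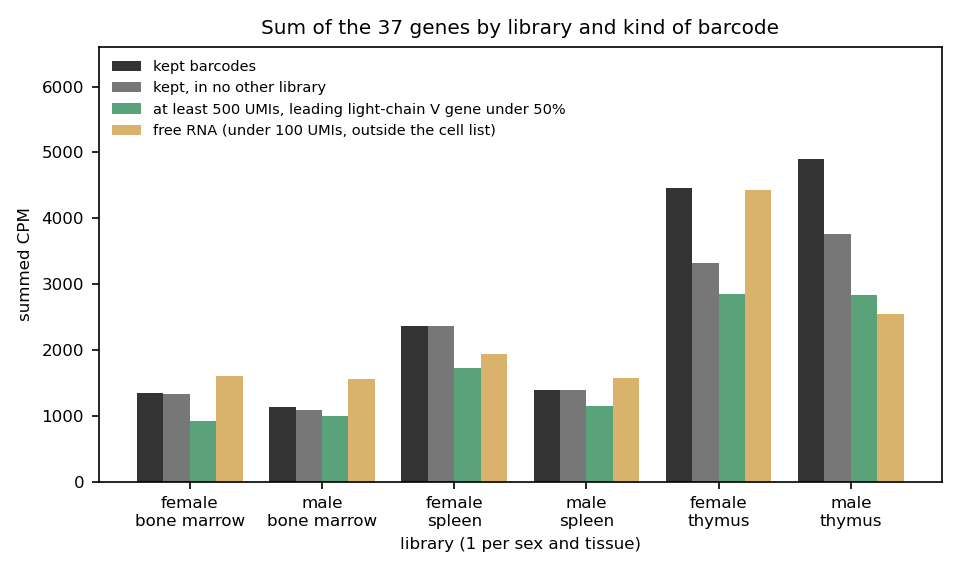
Summed CPM (y axis, linear from 0) of the 37 genes in the 6 libraries (x axis), for kept barcodes, kept barcodes found in no other library, barcodes of at least 500 UMIs whose leading light-chain V gene was under 50%, and free RNA. Kept barcodes of both thymus libraries (4459 and 4900) are above those of all other libraries, and the free RNA of female thymus (4425) lies just under its kept barcodes.

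Expression was tested gene by gene with edgeR's quasi-likelihood test on the UMI sums per library, in 1 additive model of sex and tissue with Benjamini-Hochberg adjustment over 11268 genes; a gene is called at an adjusted p under 0.05. Of the 37 members 29 passed the filter on low counts. Of these, Ifit1, Oas1a, Oas3, Oasl1 and Rtp4 passed only through their thymic level and so had to differ, and Ifit2, Ifit3, Ifit3b, Oas2, Rsad2, Slfn5, Phf11d and Ifi44 were not tested. Log2 differences are scaled by trimmed means (TMM). With library totals alone the median of all genes moved from -0.02 to 0.20 between thymus and bone marrow. Between thymus and spleen it moved from -0.04 to 0.20, and the same 15 and 11 members were called. With relative log expression size factors 15 and 10 were called, Ifi27l2a losing its call against spleen.

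Between thymus and bone marrow 15 of the 29 tested members were higher in thymus and 0 lower, where 0.497% of all genes were called higher. The median log2 difference of the 29 was 2.02, against -0.02 over all genes tested. Between thymus and spleen 11 were higher and 0 lower, where 0.453% of all genes were called higher, with a median of 1.25 against -0.04. These 11 were Rtp4, Oas1a, Oas3, Oasl2, Usp18, Lgals3bp, Ifi27l2a, Irf7, Trim30d, Xaf1 and Trim30a. Both comparisons share the thymus libraries, and the members were chosen with earlier results of these data known. The contrast with the share of all genes is therefore a description and no independent support. Leaving out the 5 that passed only through thymus, 11 of 24 were called against bone marrow (median 1.38) and 8 of 24 against spleen (median 1.11). In CPM, 22 of the 29 had both thymus libraries above all 4 others, as had 23.1% of all genes tested. The 22 include the 5 that passed only through thymus, for which the filter itself favoured this order. The exceptions were Isg15, Dhx58, Zbp1, Bst2, Ifitm3, Isg20 and Phf11b.

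With barcodes found in another library left out, 14 of the 15 genes stayed called against bone marrow and Rtp4 was no longer testable, while Herc6, Dhx58 and Stat2 were added. This fit also called more of all genes, 81 of 11084 higher in thymus than in bone marrow and 154 lower, against 56 and 25 of 11268 with all barcodes. Against spleen, Oas1a (adjusted p = 0.0556) and Ifi27l2a (adjusted p = 0.17) lost their calls in the same fit, and Herc6 and Parp9 were added; of all genes 101 were called higher and 273 lower, against 51 and 12 with all barcodes. The differences from bone marrow and from spleen were then 4.64 and 3.17 for Usp18, 4.64 and 4.63 for Oas3, 3.66 and 3.58 for Oasl2, 2.40 and 1.73 for Trim30a, 2.54 and 2.05 for Trim30d, and 2.29 and 1.62 for Xaf1. Those from bone marrow were 2.09 for Isg15, 4.89 for Oas1a, 3.77 for Oasl1, 1.69 for Parp9 and 1.41 for Parp14. The count against bone marrow was 6 with the female and 4 with the male bone marrow library left out, and 9 with the male thymus library left out; against spleen it was 6 with male thymus left out. With 1 library left out the Usp18 difference from bone marrow ran from 3.90 to 5.31. Usp18 lost its call in both comparisons once libraries were thinned to the smallest. After subtraction of the free RNA profile 9 members kept their call against bone marrow, and Isg15, Oas3, Oasl1, Oasl2, Parp9 and Parp14 lost it at differences as large as before (Isg15 2.21, Oas3 4.60, Oasl1 4.20, Oasl2 3.78, Parp9 1.57 and Parp14 1.34; adjusted p = 0.113 to 0.518). Against spleen Usp18, Trim30a, Rtp4 and Lgals3bp kept theirs, and the other 7 lost it at differences of 1.85 to 4.98. In this fit 20 of 11087 genes were called higher in thymus than in bone marrow, against 56 of 11268 with no subtraction. Against spleen 23 of all genes were called higher, where 51 were with no subtraction. Calls thus fell over all genes as well.

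**Figure D2:**
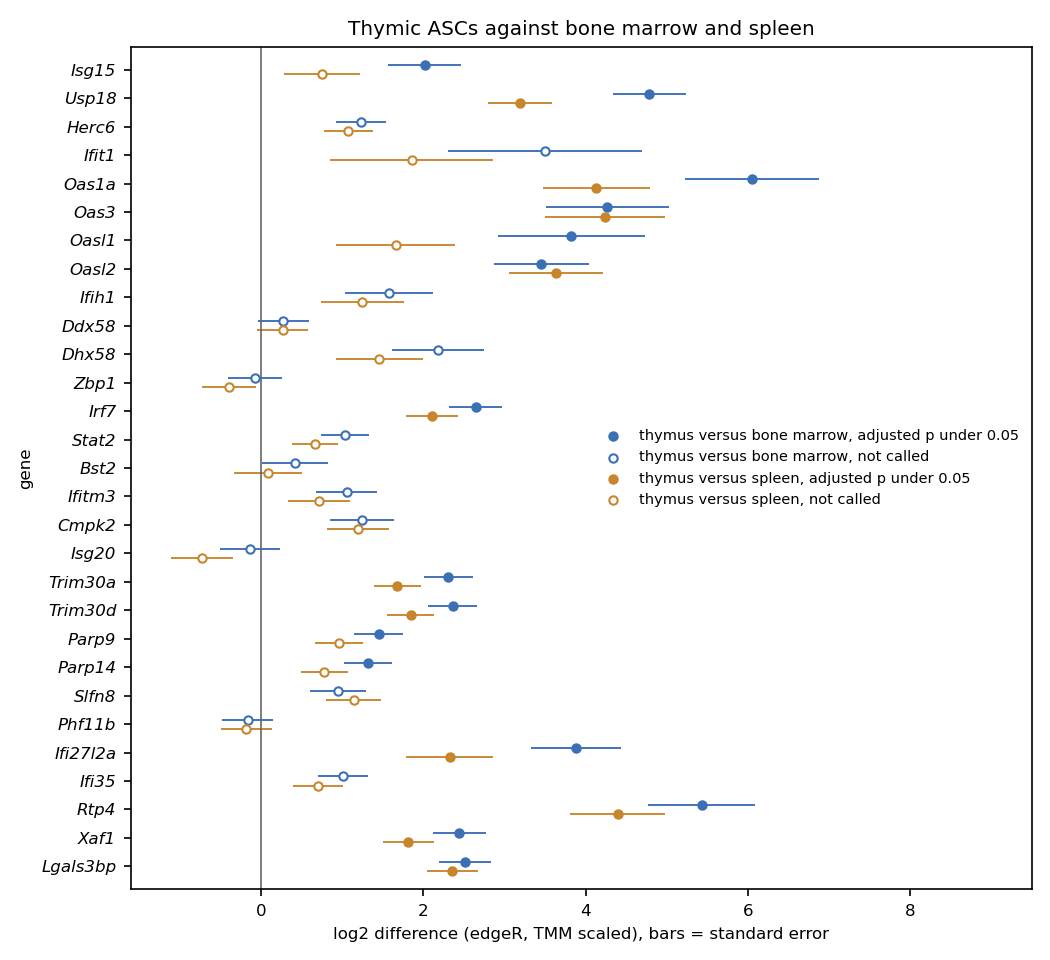
Log2 difference of thymus against bone marrow (blue) and spleen (ochre) for the 29 tested members (y axis), from edgeR, with standard errors; filled points have an adjusted p under 0.05. Oas1a, which passed the filter on low counts only through thymus, lies farthest to the right against bone marrow (6.05). Ddx58 and Phf11b lie within 1 SE of 0 in both comparisons.

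The ISG15 system opens the list. Isg15 encodes a ubiquitin-like modifier that is attached to proteins, Usp18 the protease that removes it and restrains receptor signalling, and Herc6 a ligase that attaches it in mice. Usp18 (ENSMUSG00000030107, GRCm38 chr6:121245906-121270917) had 1.74 and 1.39 CPM in bone marrow, 6.51 and 2.74 CPM in spleen and, in thymus, 46.0 and 47.7 CPM. Both thymus libraries stood above all others, and the 2 values in thymus were close together. The log2 difference was 4.79 against bone marrow (SE 0.45, edgeR adjusted p = 2.27e-07) and 3.19 against spleen (SE 0.39, adjusted p = 9.95e-05).

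Isg15 had 46.3 and 59.2 CPM in bone marrow, 179.6 and 64.7 in spleen and, in thymus, 159 and 325. Female thymus lay below female spleen while male thymus lay above every other library. Against bone marrow it was higher by 2.02 (SE 0.45, edgeR adjusted p = 0.0243), a call that DESeq2 shared and that was lost when either bone marrow library or male thymus was left out. Without male thymus the difference was 0.76, and in barcodes with no cycling UMI it was 0.93 (adjusted p = 0.0813). Against spleen the difference was 0.76 (SE 0.47, adjusted p = 0.65). Over fits that left out 1 library it ran from -0.40 to 2.10, and it was called higher in thymus without female spleen and without female thymus. Herc6 had 17.2 to 25.3 CPM in bone marrow and spleen and 46.0 and 58.2 in thymus. Its adjusted p was 0.0577 against bone marrow (log2 difference 1.23, SE 0.30) and 0.126 against spleen.

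The Isg15 promoter shows what an ISRE looks like in this set. Of 29 members with a promoter window in the RefSeq table (GRCm38.p6, 250 bases before to 50 after the start site), 17 held the ISRE core GAAANNGAAA on either strand (58.6%), against 1079 of 27025 genes in the table (3.99%). It was found in 5 of the 10 windows of members called higher in thymus than bone marrow (Isg15, Oas1a, Oas3, Trim30a and Trim30d) and in 8 of the 12 windows of tested members that were not called. Below are stretches before the start site of 2 called members and of 2 that were not called, in the sense of the gene, with matches to the core, some of them overlapping, in capitals. They lie at chr4:156200850-156200909, chr5:120907526-120907564, chr8:71537562-71537621 and chr14:59341346-59341405, each on the minus strand.
Isg15: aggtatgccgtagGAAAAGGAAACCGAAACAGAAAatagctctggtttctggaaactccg
Oas1a: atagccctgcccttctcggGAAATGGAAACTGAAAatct
Bst2: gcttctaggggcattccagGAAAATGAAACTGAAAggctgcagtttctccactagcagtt
Phf11b: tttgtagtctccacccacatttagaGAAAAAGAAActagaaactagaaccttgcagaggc

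The oligoadenylate synthetase (OAS) family makes 2'-5'-linked oligoadenylates on double-stranded RNA, which activate RNase L; the OASL proteins are relatives, of which OASL1 restrains translation of Irf7 RNA. All 5 members together took 1.82 to 5.90 CPM in bone marrow and spleen and 56.6 and 49.3 in thymus. Oas1a (chr5:120896256-120907521) had 0.522 CPM in female bone marrow and none in male, 0.936 and 0.748 in spleen and, in thymus, 21.2 and 13.7. These thymic values rest on 6 and 17 UMIs. It was higher in thymus by 6.05 against bone marrow (SE 0.83, edgeR adjusted p = 8.56e-05) and by 4.13 against spleen (SE 0.66, adjusted p = 0.00123). Oas1a passed the filter on low counts only through thymus and so had to differ. With 1 library left out its difference from bone marrow ran from 4.99 to 9.47. Near-identical Oas1 genes lie beside Oas1a, so its counts are uncertain, and without the shared barcodes 1 and 7 thymic UMIs were left.

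Oas3 had 0.522 and 0.534 CPM in bone marrow, 0.702 and 0.249 in spleen and, in thymus, 10.6 and 12.1. It was higher in thymus by 4.27 against bone marrow (SE 0.76, edgeR adjusted p = 0.0024) and by 4.24 against spleen (SE 0.74, adjusted p = 0.00311), on 18 thymic UMIs. Oasl2 had 2.44 and 0.854 CPM in bone marrow, 1.97 and 0.623 in spleen and, in thymus, 17.7 and 16.2. Its differences were 3.46 (SE 0.59, adjusted p = 0.00152) and 3.64 (SE 0.58, adjusted p = 0.00123). Oasl1 had 0.348 and 0.427 CPM in bone marrow, 2.20 and 1.37 in spleen and, in thymus, 3.54 and 7.27. It was called against bone marrow (3.82, SE 0.90, edgeR adjusted p = 0.0406), on 1 female and 9 male thymic UMIs. Against spleen it was not called (1.66, SE 0.73, adjusted p = 0.504). Oas3 and Oasl1 also passed the filter on low counts only through thymus and so had to differ. Oas2 had 3 UMIs in all 6 libraries. Against bone marrow the calls of Oas3 and Oasl1 were lost when either bone marrow library or male thymus was left out, that of Oasl1 also without female spleen, and that of Oasl2 without male bone marrow or male thymus. Against spleen the Oas3 call was lost without male spleen or male thymus, and that of Oasl2 without male thymus.

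The IFIT family, which binds foreign RNA ends, was scarcely detected. Ifit1 had 0.174 to 1.12 CPM in bone marrow and spleen and 7.07 and 2.42 in thymus, on 2 and 3 thymic UMIs. Its difference from bone marrow was 3.50 (SE 1.19, edgeR adjusted p = 0.347). Ifit2, Ifit3 and Ifit3b had 0 UMIs in both thymus libraries, which allows up to 10.6 CPM in the female and 2.42 in the male. Elsewhere they had at most 9 UMIs in a library. Ifit3 and Ifit3b are near-identical copies, and reads may not be assigned firmly to either, which was not tested. Their promoter stretches, at chr19:34583382-34583441 and chr19:34607778-34607837, lie before the start site and differed in 0 of 60 bases.
Ifit3: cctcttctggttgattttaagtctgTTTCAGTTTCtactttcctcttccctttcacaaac
Ifit3b: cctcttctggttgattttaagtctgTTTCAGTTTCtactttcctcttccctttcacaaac

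Of the 4 sensors of viral nucleic acid 0 were called by edgeR in either comparison, near the share of all genes called higher in thymus (0.497% against bone marrow and 0.453% against spleen). Ifih1 and Dhx58 had an unadjusted p under 0.05 in both, as had 983 of the 11268 genes tested against bone marrow and 1041 against spleen. Ddx58 encodes RIG-I, Ifih1 MDA5 and Dhx58 LGP2, which detect viral RNA, and Zbp1 detects Z-form nucleic acid and can start cell death. Ddx58 had 104 and 108 CPM in bone marrow, 84.9 and 130.3 in spleen and, in thymus, 159 and 152. After TMM scaling the difference was 0.28 against bone marrow (SE 0.31, edgeR adjusted p = 0.844) and 0.27 against spleen (SE 0.31, adjusted p = 0.847). Zbp1 had 91.3 and 95.2 CPM in bone marrow, 132 and 98.4 in spleen and, in thymus, 99.0 and 108. Both bone marrow libraries were the lowest, and thymus lay within the range of spleen. After TMM scaling its differences were -0.07 (SE 0.33) and -0.40 (SE 0.33). Ifih1 and Dhx58 were low, at 2.88 to 5.20 CPM in bone marrow and spleen. In thymus Ifih1 had 10.6 and 11.3, and Dhx58 had 0 and 21.8, the first of which allows up to 10.6. Against bone marrow their differences were 1.58 (SE 0.54, edgeR adjusted p = 0.343) and 2.18 (SE 0.57, adjusted p = 0.0854). Dhx58 was called against bone marrow with no filter on low counts, without barcodes found in another library, and when either spleen library was left out. It was also called in both comparisons without female thymus, where it had 0 UMIs, a fit that leaves thymus 1 library.

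Of the members that are transcription factors of the pathway, Irf7 was called and Stat2 was not. Irf7 (chr7:141262706-141266481), the factor that amplifies interferon production, had 20.4 and 16.4 CPM in bone marrow, 31.9 and 20.3 in spleen and, in thymus, 109.6 and 145. Thymus was higher by 2.65 than bone marrow (SE 0.33, edgeR adjusted p = 2.3e-05) and by 2.11 than spleen (SE 0.32, adjusted p = 0.000916). Without barcodes found in another library the thymic values were 103 and 129.9 CPM and the differences 2.51 and 1.91. The call against bone marrow was lost without male bone marrow, and that against spleen without male thymus. Stat2 had 28.9 and 33.1 CPM in bone marrow, 29.2 and 53.5 in spleen and, in thymus, 67.2 and 85.7, a difference of 1.04 against bone marrow (SE 0.30, adjusted p = 0.156) and of 0.67 against spleen (SE 0.29, adjusted p = 0.503).

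Of the 4 tested membrane and enzymatic restriction factors edgeR called 0 between thymus and the other tissues, again near the share of all genes called (0.497% and 0.453% higher in thymus). Cmpk2 had an unadjusted p under 0.05 in both comparisons and Ifitm3 against bone marrow. Bst2 encodes tetherin, which holds budding virus at the cell surface, and had 226 and 195 CPM in bone marrow, 341 and 179 in spleen and, in thymus, 237 and 404. Isg20, a 3' to 5' exonuclease, had 237 and 202 in bone marrow, 423 and 237 in spleen and, in thymus, 233 and 234. Both were high in female spleen, and their thymic values lay within the range of the other libraries except for Bst2 of male thymus. Against bone marrow the differences were 0.42 (SE 0.41, edgeR adjusted p = 0.808) for Bst2 and -0.13 (SE 0.37, adjusted p = 0.952) for Isg20. Against spleen they were 0.09 (SE 0.42) and -0.72 (SE 0.38, adjusted p = 0.569). With male spleen left out Isg20 was called lower in thymus than in spleen (-1.26, adjusted p = 0.0294), and with female spleen left out its difference was -0.16.

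Ifitm3, which blocks fusion of virus with endosomes, had 67.2 and 49.2 CPM in bone marrow, 85.9 and 57.1 in spleen and, in thymus, 81.3 and 178. Its difference of 1.06 against bone marrow (SE 0.38, edgeR adjusted p = 0.388) became -0.08 once barcodes found in another library were left out, which took female thymus from 23 UMIs to 3. With 1 library left out it ran from -0.22 to 1.77, the lowest without male thymus, and was called without female spleen, without male spleen or without female thymus (lowest adjusted p = 0.00167). Cmpk2, a mitochondrial nucleotide kinase, had 7.26 to 8.002 CPM in bone marrow and spleen and 24.8 and 19.4 in thymus (difference from bone marrow 1.25, SE 0.39, adjusted p = 0.251). Its neighbour Rsad2, which encodes viperin, had 4 to 16 UMIs in each bone marrow and spleen library and 0 in thymus.

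In the TRIM, PARP, SLFN and PHF11 families 4 of 6 tested members were called higher in thymus than in bone marrow and 2 than in spleen, where 0.497% and 0.453% of all genes were. Trim30a and Trim30d belong to a mouse cluster of ubiquitin ligases on chromosome 7. Trim30a had 40.4 and 28.1 CPM in bone marrow, 58.1 and 45.9 in spleen and, in thymus, 286 and 144. Trim30d had 20.7 and 17.8, 26.5 and 28.1, and 184 and 80.8 in the same order. For both the female thymus was the highest library and the male thymus the second. Trim30a was higher by 2.31 against bone marrow (SE 0.30, edgeR adjusted p = 4.15e-05) and by 1.68 against spleen (SE 0.29, adjusted p = 0.00287). For Trim30d the differences were 2.36 (SE 0.30, adjusted p = 3.09e-05) and 1.85 (SE 0.29, adjusted p = 0.0011). The Trim30a calls, against bone marrow and against spleen, were lost when either bone marrow library was left out, and the Trim30d call against bone marrow without the female one.

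The upstream stretches of both genes are shown because both genes were called and the stretches differ in 1 of 60 bases (chr7:104465195-104465254 and chr7:104507856-104507915, minus strand; the capitals mark the ISRE core on the opposite strand). Reads of both genes may be split between copies, which stretches before the start site cannot show and which was not tested.
Trim30a: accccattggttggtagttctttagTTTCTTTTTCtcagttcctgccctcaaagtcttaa
Trim30d: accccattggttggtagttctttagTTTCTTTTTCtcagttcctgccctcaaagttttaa

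Parp9 and Parp14 encode ADP-ribosyltransferases and lie near each other on chromosome 16. Parp9 had 18.8 and 16.3 CPM in bone marrow, 22.0 and 26.8 in spleen and, in thymus, 70.7 and 49.3. Parp14 had 37.4 and 37.3 in bone marrow, 41.3 and 68.7 in spleen and, in thymus, 120.2 and 108. Both were called against bone marrow, by 1.45 (SE 0.30, edgeR adjusted p = 0.0123) and 1.32 (SE 0.30, adjusted p = 0.0262), and neither against spleen (adjusted p = 0.214 and 0.421). Neither call was kept by DESeq2 (adjusted p = 0.0523 and 0.071), and both were lost when either bone marrow library or male thymus was left out; that of Parp14 was also lost without female thymus. Slfn8, of a family of growth and translation regulators, had 8.94 to 19.6 CPM in bone marrow and spleen and 42.4 and 35.6 in thymus, with an adjusted p of 0.394 and 0.182 in edgeR.

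Phf11b, a PHD finger protein of the same family as Phf11d, had 45.4 and 40.9 CPM in bone marrow, 45.1 and 40.9 in spleen and, in thymus, 38.9 and 46.9. Female thymus was the lowest and male thymus the highest of the 6, and the differences were -0.16 against bone marrow (SE 0.31, edgeR adjusted p = 0.92) and -0.18 against spleen (SE 0.31, adjusted p = 0.911). Slfn5 and Phf11d had at most 29 UMIs in a library.

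The remaining 6 members held the most UMIs in thymus, 53.4% and 52.9% of the UMIs of all 37 genes. Ifi27l2a (chr12:103442167-103443680), a small hydrophobic protein of organelle membranes, had 198 and 77.8 CPM in bone marrow, 660.4 and 171 in spleen and, in thymus, 1796 and 2128. Female libraries exceeded male ones in bone marrow and spleen, and both thymus libraries lay above all 4. Thymus was higher by 3.88 than bone marrow (SE 0.56, edgeR adjusted p = 0.000164) and by 2.32 than spleen (SE 0.54, adjusted p = 0.0434). The call of Ifi27l2a against spleen was lost with relative log expression size factors. Without barcodes found in another library Ifi27l2a had 781 and 1138 CPM in thymus, and the differences were 2.96 (edgeR adjusted p = 4.15e-05) and 1.20 (adjusted p = 0.17). Against bone marrow its call was lost when either bone marrow library was left out, and against spleen also without male spleen or male thymus.

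Lgals3bp, a secreted glycoprotein that binds galectins, had 48.4 and 43.7 CPM in bone marrow, 57.4 and 44.6 in spleen and, in thymus, 375 and 271. It was higher by 2.52 against bone marrow (SE 0.32, edgeR adjusted p = 3.09e-05) and by 2.36 against spleen (SE 0.32, adjusted p = 0.000184), and 2.36 and 2.16 without shared barcodes. Xaf1, an antagonist of the apoptosis inhibitor XIAP, had 13.0 and 9.40 CPM in bone marrow, 21.4 and 12.6 in spleen and, in thymus, 63.6 and 68.7. Its differences were 2.45 (SE 0.33, adjusted p = 7.55e-05) and 1.82 (SE 0.32, adjusted p = 0.00322). Lgals3bp lost its call against bone marrow when either bone marrow library was left out, and Xaf1 without the male one; against spleen Xaf1 lost it without male thymus.

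Rtp4, a receptor chaperone that also restrains virus replication, had 0.522 and 0.320 CPM in bone marrow, 1.12 and 0.499 in spleen and, in thymus, 24.8 and 17.8. The difference was 5.43 against bone marrow (SE 0.66, edgeR adjusted p = 2.28e-05) and 4.40 against spleen (SE 0.59, adjusted p = 0.000184), on 7 and 22 thymic UMIs. Rtp4 passed the filter on low counts only through thymus and so had to differ. All 7 of the female thymus came from barcodes found in another library, and 17 of the 22 of the male thymus did not. Ifi35 had 47.3 and 42.4 CPM in bone marrow, 66.5 and 44.0 in spleen and, in thymus, 109.6 and 102, with adjusted p = 0.226 and 0.504. Ifi44 reached 7 thymic UMIs, against 0 in bone marrow and 1 in spleen, and did not pass the filter on low counts. Barcodes found in no other library held 1 of the 7. With no filter edgeR called it against bone marrow (adjusted p = 0.0383) and spleen (adjusted p = 0.0442), a test it enters almost only through those 7 UMIs.

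**Figure D3:**
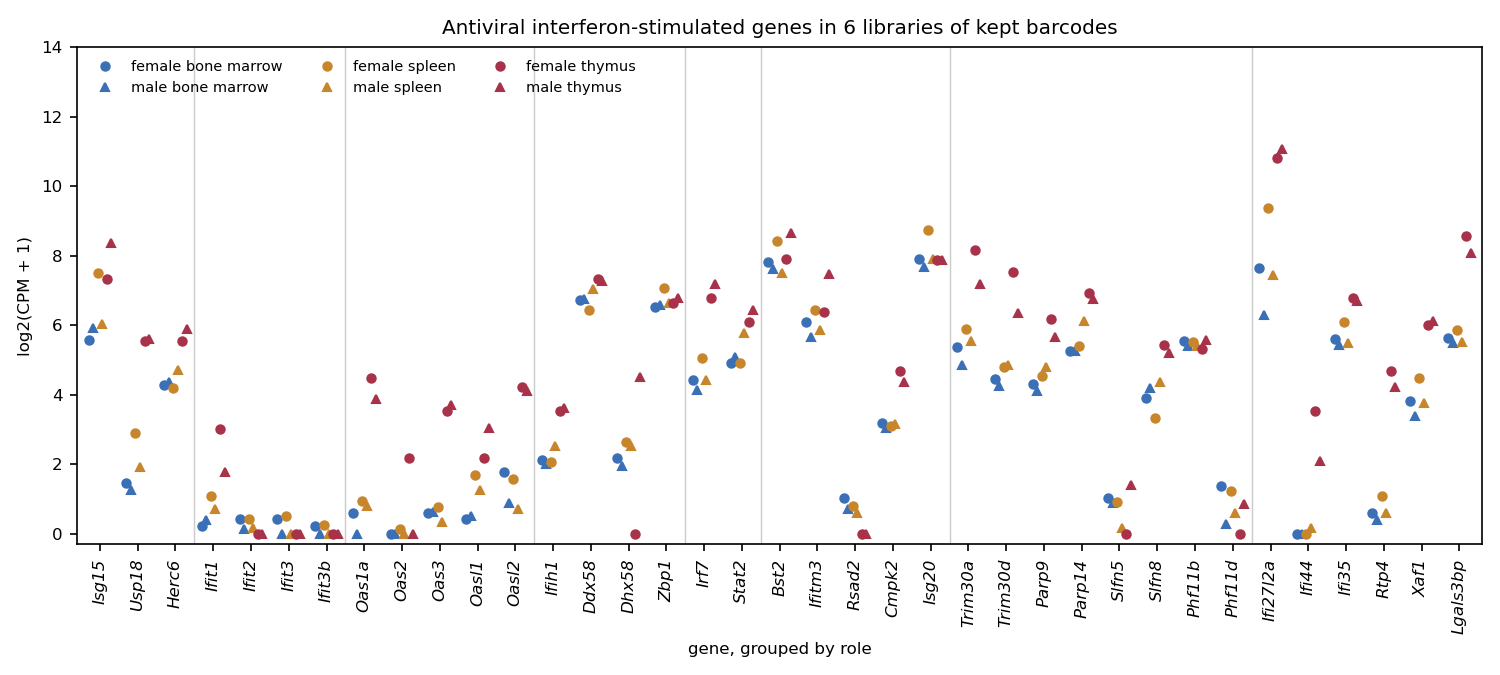
Level of each of the 37 genes as log2(CPM + 1) (y axis) in the 6 libraries, with circles for female and triangles for male libraries and a colour per tissue; vertical lines separate the roles. Thymus (red) lies above the other libraries for Usp18, Oas1a, Oas3, Oasl1, Oasl2, Irf7, Trim30a, Trim30d, Rtp4, Xaf1 and Lgals3bp, and among them for Zbp1 and Isg20. The female thymus point of Oasl1 rests on 1 UMI.

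Spleen and bone marrow differed in 0 of the 29 tested members by edgeR and by DESeq2, where 0.39% of all genes were called; 7 had an unadjusted p under 0.05, all higher in spleen, as had 524 of the 11268 genes tested in either direction. These were Isg15 (1.26), Usp18 (1.59), Oas1a (1.92), Oasl1 (2.16), Trim30a (0.63), Ifi27l2a (1.56) and Xaf1 (0.63), as log2 differences. The median was 0.48, against 0.02 over all genes tested, and 0.15 without female spleen. Without the male spleen library 4 members were called, all higher in spleen, without male thymus 2 and without female thymus 1. The share of all genes called with 1 library left out is not given, so these counts are not read as results about the members. Leaving out shared barcodes, Isg15 (1.49, edgeR adjusted p = 0.0199) and Ifi27l2a (1.76, adjusted p = 0.0486) were called. Of all 11084 genes tested in that fit 15 were called higher in spleen and 47 lower.

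Male and female libraries likewise differed in 0 of 29 by either tool, where 0.39% of all genes were called. At an unadjusted p under 0.05, which 1083 of the 11268 genes tested reached in either direction, 6 were lower in males: Usp18 (-0.80), Oasl2 (-1.26), Trim30a (-0.76), Trim30d (-0.54), Ifi27l2a (-1.19) and Xaf1 (-0.65). The median difference was -0.41 (6 of 29 above 0), against 0.01 over all genes tested, and -0.23 with library totals alone, where the median of all genes was 0.22. With either thymus library left out 4 members were called, all lower in males. The share of all genes called in these fits is not given, so this count is not read as a result about the members.

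Cells were also divided by the heavy-chain constant gene with the most UMIs, and IgM cells were the largest class in every library (85 of 133 and 284 of 355 in thymus). In IgM cells alone 13 of the 15 genes were called against bone marrow. Oasl1 (3.60, edgeR adjusted p = 0.121) and Parp14 (1.23, adjusted p = 0.055) missed the threshold at similar differences. The share of all genes called in IgM cells is not given, so the 13 are not read as a result about the members. The summed level of the 37 genes in IgM cells was 3905 and 4266 CPM in thymus, 1267 and 1118 in bone marrow and 2291 and 1368 in spleen. In IgA cells it was 7229 and 3754 in thymus and 1294 to 2790.0 elsewhere, and in IgG cells 3784 and 9149 in thymus and 1239 to 2509 elsewhere. Thymus was above the other tissues in each class, while its 2 libraries differed most in IgA and IgG, which there numbered 23 to 40 cells each.

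Within libraries, IgA cells differed from IgM cells in 8 of 20 tested members, 5 higher (where 4.48% of genes were called higher) and 3 lower (4.25%). Lgals3bp was higher in IgA cells in all 6 libraries, at 77.9 and 69.9 CPM against 41.4 and 42.7 in IgM cells of bone marrow, 126 and 85.3 against 47.9 and 39.8 in spleen, and 553 and 259 against 277 and 249 in thymus. Its difference was 0.98 (SE 0.15, edgeR adjusted p = 2.53e-05). Bst2 (0.79, SE 0.13) and Herc6 (0.86, SE 0.21) were likewise higher in 6 of 6 libraries, and Parp14 (0.58, SE 0.17) in 5 of 6. Herc6 lost its call without female bone marrow and was not testable in barcodes with no cycling UMI. Ifitm3 was called higher (0.94, SE 0.24) but stood above IgM cells in 4 of 6 libraries. It was lower in male bone marrow (33.1 against 48.3 CPM) and male spleen (13.1 against 59.6), and its call was lost without female spleen and in barcodes with no cycling UMI. Phf11b, not called between tissues, was lower in IgA cells, by -1.03 (SE 0.20, edgeR adjusted p = 0.000778). It had 11.8 to 32.4 CPM in IgA cells against 42.5 to 53.2 in IgM cells. The IgA values rest on 43 UMIs in female spleen and on 1 to 5 in each other library. Phf11b was not testable in barcodes with no cycling UMI. Slfn8 (-1.50, SE 0.42, on at most 5 UMIs of IgA cells in a library) and Isg20 (-0.42, SE 0.12) were lower too. The Slfn8 call was lost without male bone marrow, and Slfn8 was not testable in several alternatives, among them that without shared barcodes. The Isg20 call was lost in barcodes with no cycling UMI and without female spleen, male thymus or either bone marrow library.

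IgG cells differed from IgM cells in 6 of 20, 5 higher (6.46% of genes) and 1 lower (7.55%). Higher were Lgals3bp (0.69, SE 0.13), Bst2 (0.65, SE 0.12), Isg20 (0.43, SE 0.10), Zbp1 (0.42, SE 0.10) and Stat2 (0.37, SE 0.12). Phf11b was lower (-0.82, SE 0.15, edgeR adjusted p = 9.6e-05) and again not testable in barcodes with no cycling UMI. Without barcodes found in another library 7 members were called in each class comparison. Lgals3bp and Bst2 were called in both class comparisons under all 12 alternatives, whereas Parp14 lost its call in 7 of 12 for IgA and Stat2 in 7 of 12 for IgG. Of the 12, that of at least 20 barcodes per sum left the same 18 sums and so repeats the main fit. The count for IgA was 4 without female bone marrow or without female spleen and 5 without male bone marrow; that for IgG was 4 when either spleen library was left out, Isg20 and Stat2 losing their calls both times and Zbp1 without the female one. Whether the thymic difference itself varied between IgA and IgM cells was tested as an interaction, for which edgeR called 0 of 20 members (0.0622% of genes called). At an unadjusted p under 0.05 there were 2 members of 20 and 501 of the 6428 genes tested, shares too near each other to say anything of the members.

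**Figure D4:**
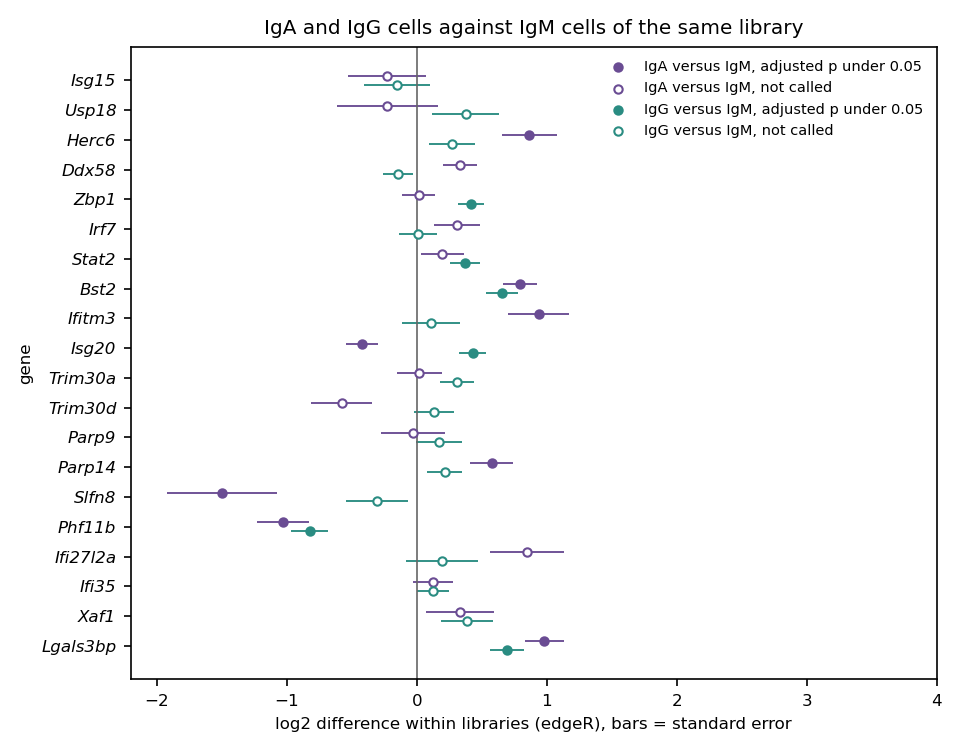
Log2 difference of IgA (purple) and IgG (green) cells from IgM cells of the same library for 20 members, from edgeR, with standard errors; filled points have an adjusted p under 0.05. Lgals3bp and Bst2 are above 0 and Phf11b below 0 in both classes, and Isg20 is lower in IgA (-0.42) and higher in IgG cells (0.43).

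With each barcode thinned to 500 UMIs, at least 3 UMIs of the 37 genes were found in 4.53% and 2.09% of kept barcodes in bone marrow, 10.1% and 3.76% of those in spleen, and 29.3% and 23.9% of those in thymus. The exact 95% binomial intervals for thymus were 21.8 to 37.8% and 19.6 to 28.7%, above those of every other library; they cover counting error only. Unthinned, the shares were 54.0% to 84.3% in bone marrow and spleen and 71.4% and 71.5% in thymus, at median depths of 2658 to 4180 and of 1738 and 2167 UMIs. The top 10% of thymic barcodes held 38.3% of these UMIs in both libraries, and 38.6% to 43.6% in the others. Ifi27l2a was found in 27.8% and 23.9% of thinned thymic barcodes, Lgals3bp in 15.8% and 12.1% and Trim30a in 12.8% and 7.89%.

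Barcodes of at least 500 UMIs without a leading light-chain V gene showed the same order of tissues, with at least 3 UMIs in 19.1% and 16.6% in thymus and 1.60% to 7.40% elsewhere. The shares are therefore not read as shares of expressing cells.

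**Figure D5:**
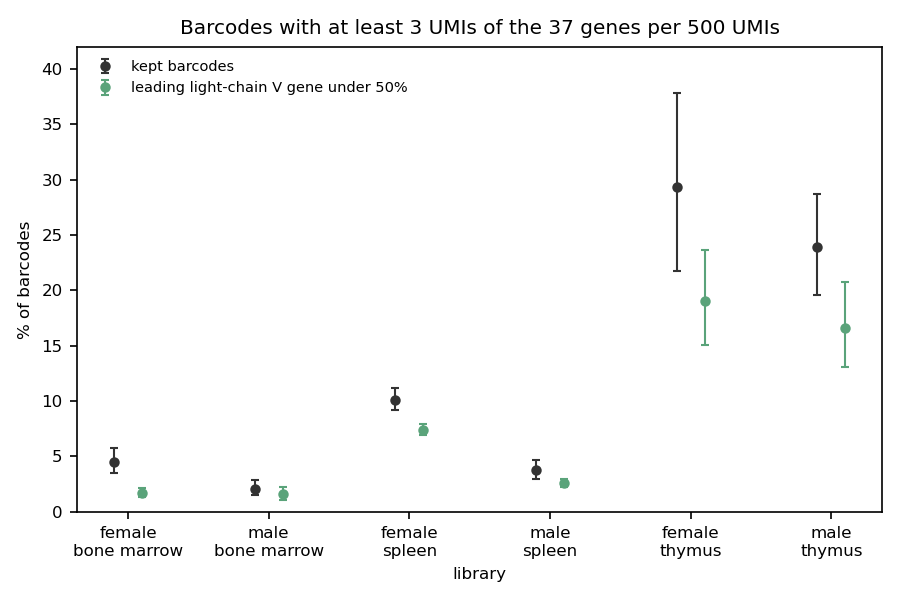
Share of barcodes (y axis, %) with at least 3 UMIs of the 37 genes after thinning to 500 UMIs, by library, with exact 95% binomial intervals, for kept barcodes and for those whose leading light-chain V gene was under 50%. Both thymus libraries (29.3% and 23.9% of kept barcodes) lie above the other 4.

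Free RNA, taken from barcodes outside the filtered lists with under 100 UMIs, held 4425 and 2540.3 CPM of the 37 genes in female and male thymus and 1560.2 to 1934 elsewhere, so it too was highest in thymus. From light-chain V UMIs other than the leading one, it was estimated to supply 4.95% and 7.95% of thymic UMIs and 7.93% to 20.5% elsewhere. Thymic cells had 20.2 and 22.6 times the member UMIs so estimated, and the other libraries 4.73 to 8.67 times. For Trim30a, kept thymic barcodes had 286 and 144 CPM against 100.1 and 79.1 in free RNA, and for Lgals3bp 375 and 271 against 90.4 and 98.2. In female thymus 12 of the 37 genes were higher in free RNA than in kept barcodes, and in male thymus 4, against 20 to 27 in the other libraries. Among the 12 were Ifi27l2a (1796 in kept barcodes, 2416 in free RNA), Isg15 (159 and 351), Bst2 (237 and 365), Isg20 (233 and 378), Ifitm3 (81.3 and 98.2) and Phf11b (38.9 and 54.3). In male thymus Ifi27l2a had 2128 in kept barcodes and 790.1 in free RNA.

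The rest of the pathway was compared from lists of its ligands, receptors and regulators. Of 13 interferon genes 11 had 0 UMIs in all kept barcodes and the list had 14 UMIs in all, 13 of them Ifng in female spleen. The median difference of 9 receptor chains and kinases was -0.03 against bone marrow and 0.01 against spleen, and edgeR called 0, near the 0.497% and 0.453% of all genes called higher in thymus. Ifnar1 had 95.5 and 71.9 CPM in thymus and 48.0 and 55.6 in bone marrow (difference 0.36, SE 0.31, edgeR adjusted p = 0.774). For Ifnar2 the values were 109.6 and 138 in thymus and 113 and 128 in bone marrow (-0.18, SE 0.34).

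Among 6 further interferon regulatory factors edgeR called Irf9, against bone marrow. Of all genes 0.497% were called higher in thymus than in bone marrow and 0.453% than in spleen. The differences of Irf1, Irf2, Irf3, Irf5 and Irf8 ran from -0.51 to -0.01 against bone marrow and from -0.52 to -0.03 against spleen, with 0 called. Irf9, which encodes the DNA-binding partner of STAT2 at the ISRE, had 27.3 and 29.7 CPM in bone marrow, 38.9 and 41.9 in spleen and, in thymus, 103 and 79.2. Both thymus libraries were above the other 4. The difference was 1.37 against bone marrow (SE 0.29, edgeR adjusted p = 0.0136), and Irf9 was not called against spleen (0.85, adjusted p = 0.335). Its call against bone marrow held in 11 of 21 alternatives and was lost when either bone marrow or either thymus library was left out, at differences of 1.24 to 1.55, and with DESeq2.

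Tlr7, the endosomal receptor of single-stranded RNA, was called in both comparisons, alone among the 6 tested of 11 sensing adaptors and receptors. Of all genes 0.497% and 0.453% were called higher in thymus in these comparisons. It had 14.3 and 8.54 CPM in bone marrow, 15.9 and 17.0 in spleen and, in thymus, 113 and 83.3, and was higher by 2.87 (SE 0.30, edgeR adjusted p = 1.63e-06) and 2.29 (SE 0.28, adjusted p = 9.95e-05). The 4 inhibitors had a median difference of -0.41 and -0.03, and edgeR called 0, which at these shares of all genes called says nothing of the list. Of 20 tested among 26 further interferon-induced genes, Samd9l (2.26), Trim34a (1.59) and Eif2ak2 (1.49) were higher in thymus than in bone marrow, and Samd9l (2.97) than in spleen, where 0.497% and 0.453% of all genes were. Against bone marrow the call held in 15 of 18 alternatives for Samd9l, 11 of 19 for Trim34a and 14 of 21 for Eif2ak2. All 3 lost it without male bone marrow, Trim34a and Eif2ak2 also without female bone marrow, and Trim34a without male thymus and with DESeq2.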

How the data were processed

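The authors deposited UMI count matrices, filtered and raw, for 6 libraries; the file headers name Cell Ranger 6.0.2 for the filtered and version 4 for the raw ones, and mm10 and GRCm38 stand in the submitters' processing notes. From the deposited counts, UMIs outside genes starting with Igh, Igk or Igl (395 genes) were summed per library over kept barcodes. No doublet caller was run: the light-chain rule takes out barcodes with mixed light chains, which doublets or free RNA can both give. Sums were tested with edgeR 4.0.16 (R 4.3.3; TMM, sex and tissue, 2 residual degrees of freedom, minimum count 10, biological coefficient of variation 20.0%). P-values of the tissue model rest on how far the libraries depart from additive effects of sex and tissue, not on replicate libraries. Those of the class tests rest on how far class differences vary between libraries. Class tests used 18 sums of at least 10 barcodes with the library as a block. On simulated counts the test recovered 95% of 4-fold and 25% of 2-fold changes between thymus and bone marrow (11060 genes). These shares were not split by expression level. They are therefore not applied to members with few thymic UMIs, such as Ifih1 and Dhx58. Values in every library are given for members called between thymus and another tissue and for the members of highest level. The members and lists were chosen with earlier results of these data known. Alternatives covered scaling, DESeq2 1.42.0, filters, depth, free RNA, classes, shared barcodes and each library left out. The V(D)J files were not used here. Some results of the pathway lists are not reported here.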

Additional observations from a re-analysis of the deposited data

Results flagged for a closer look

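Bst2 differed between thymus and spleen in opposite directions in the sexes, with a log2 ratio of CPM of -0.53 in the female and 1.17 in the male libraries. Between spleen and bone marrow its log2 ratio was 0.59 in the female and -0.13 in the male libraries. Ddx58 also went in opposite directions between spleen and bone marrow, at -0.29 in the female and 0.28 in the male libraries. These differences between the sexes were not tested, since each combination of sex and tissue has 1 library.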

How the results depend on the processing

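In the alternatives run, the medians between tissues and sexes kept their sign. The number of members called between thymus and bone marrow (15) was 9 with free RNA subtracted, 7 with libraries thinned to the smallest, 4 in IgA and 8 in IgG cells only, and 4 to 20 with 1 library left out. Their median difference (2.02) was 2.25 with library totals only, 1.43 with no filter, 1.68 thinned, 1.38 in barcodes with no cycling UMI, 1.74, 1.101 and 1.72 in IgM, IgA and IgG cells, 1.80 without near-identical copies, and 1.43 to 1.90 with 1 library left out. The number called between thymus and spleen (11) was 7 with no sex term, 4 with free RNA subtracted, 5 thinned, 1 in IgA and 7 in IgG cells, and 6 to 14 with 1 library left out; without male spleen the 14 include Isg20, called lower. Their median (1.25) was 1.61 with a leading light-chain V gene of at least 80%, 0.67 thinned, 0.53 in IgA cells, and 1.099 to 1.47 with 1 library left out. Between spleen and bone marrow (0 called) 2 were called with no filter, 1 with no cycling UMI, 2 without shared barcodes and 0 to 4 with 1 library left out, with medians of 0.15 to 0.69. Between the sexes (0 called) 1 was called in IgA cells and 0 to 4 with 1 library left out, with medians of -0.75 to -0.13. For IgA against IgM (8) 3 were called with no cycling UMI and 4 to 8 with 1 library left out; for IgG (6) 3 were called at 80% and 4 to 6 with 1 library left out. Fewer UMIs or fewer genes tested enter by construction when libraries are thinned or 1 class is used. Leaving out 1 library likewise lowers the 2 residual degrees of freedom of the tissue model and leaves 1 tissue with 1 library. Otherwise the cause was not tested. Counts under alternatives whose share of all genes called is not given are not read as results about the members. Library totals only, and the class tests without shared barcodes, were chosen after seeing the data. Sex, which pairs the libraries across tissues, is a block in the model; without it 10 and 7 members were called against bone marrow and spleen. Depth limits the thymic values, where 3 UMIs are 10.6 CPM in the female library.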
